A study of Homo sapiens with 33 samples.

Results

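The difference between the cetuximab response of SCC1 and that of SCC25, both established head and neck squamous cell carcinoma (HNSCC) cell lines, was measured gene by gene. For each gene it is the log2 fold change of cetuximab over PBS in SCC1 minus the same fold change in SCC25, so that a positive difference means a fold change that was higher in SCC1. The comparison took the 20 libraries of these lines from days 1 to 5, of 33 in the series. They comprise 5 libraries each of SCC1 with PBS, SCC1 with 100 nM cetuximab, SCC25 with PBS and SCC25 with 100 nM cetuximab, 1 for each day. Both lines received cetuximab or PBS from the day after seeding, with fresh medium daily, but SCC25 was plated at a lower cell number and its medium held less hydrocortisone. Poly(A) RNA of whole cultures was sequenced. The comparison asks whether a gene answers cetuximab to the same extent and in the same direction in both. No label says that the libraries of a group came from separate cultures. The days served as the replicates of a group, which puts any change with time into the error, and the p-values measure the spread between these libraries alone. In bulk RNA, fewer cells that express a gene and less RNA of that gene per cell cannot be told apart.

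Cetuximab is an antibody that binds the extracellular part of the epidermal growth factor receptor (EGFR) and blocks its ligands. In squamous cells, EGFR signals through RAS and the kinase ERK to immediate early transcription factors, to feedback inhibitors such as the DUSP phosphatases and SPRY proteins, and to EGFR ligands that the cells themselves secrete. Loss of EGFR signalling in keratinocytes is known for lower growth and for the onset of differentiation genes.

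Of 56470 gene symbols in the deposited table, 20564 had enough counts in these libraries to be tested. Libraries held 36336811 to 52144216 counts, with group medians between 38463322 for SCC1 with cetuximab and 47086128 for SCC25 with PBS. The labels place the libraries on 3 flow cells, called A to C here. A held every PBS library of SCC25 and, from days 1 and 2, its cetuximab libraries. B held the later SCC25 cetuximab libraries (days 3 to 5) together with PBS libraries of SCC1 up to day 4, and C held PBS of day 5 and every cetuximab library of SCC1. Flow cell and treatment therefore overlap strongly. Within a flow cell, SCC1 had only PBS of day 5 to set against its cetuximab libraries. In SCC25 only cetuximab of days 1 and 2 shared a flow cell with PBS. A model with flow cell as a covariate takes both effects from these same libraries, so its estimates nearly equal those within flow cells. These fits are not separate checks, and they compare libraries of different days, so a change with time enters their effects. Of 102 genes chosen for naming that had a called difference, 52 lost the call among libraries of the same flow cell and 47 when flow cell entered the model. Calls lost in this way are given beside the genes described. The 7 keratinocyte markers (KRT5, KRT14, KRT6A, TP63, CDH1, EPCAM and DSP) were over 1 CPM (counts scaled to library size, with TMM factors) in every library, and their summed level was 1830 to 3050 CPM in SCC1 with PBS, 6070 to 8590 CPM in SCC1 with cetuximab, 12500 to 18300 CPM in SCC25 with PBS and 14800 to 17000 CPM in SCC25 with cetuximab. Of the leukocyte markers, PTPRC, CD3E and ITGAM stayed under 1 CPM in every library, whereas CD68 had a mean of 36.2 and 8.06 CPM in SCC1 with PBS and cetuximab and of 206 and 166 CPM in SCC25, and LAPTM5 of 2.27, 0.178, 23.2 and 15.4 CPM. Of the fibroblast markers, PDGFRB stayed under 1 CPM in every library, whereas in SCC25 with PBS and cetuximab COL1A2 was at 66 and 107 CPM, LUM at 30.2 and 87.3 CPM and COL3A1 at 16 and 49.4 CPM, and the group means of FAP lay between 33.4 and 66.6 CPM in both lines. The part of other cells in the results was not tested.

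The cetuximab response of SCC1 and SCC25 differed for 3082 genes, 15% of those tested, at an adjusted p under 0.05 (edgeR quasi-likelihood test, Benjamini-Hochberg adjustment, as for all adjusted p below). The difference was positive for 1515 genes, 7.37% of those tested, and negative for 1567, 7.62%, and its size was at least 1 log2 unit for 1071. In the same fit, cetuximab changed 8368 genes in SCC1, 40.7% of those tested, and 3697 in SCC25, 18%. At mean levels of 3 log2 CPM or more, the median standard error of the fold change was 0.0806 log2 units in SCC1 and 0.0803 in SCC25. Both come from 1 model in which the groups, of 5 libraries each, share the dispersion of a gene. These standard errors therefore cannot compare the spread within the lines. Among the 3082 genes, the fold change was larger in size in SCC1 for 2728 (88.5%), and both estimates had the same sign for 1783 (57.9%). When flow cell was added as a covariate, 1138 genes were called, and among libraries of the same flow cell, which leaves 1 PBS library in SCC1 and 2 cetuximab libraries in SCC25, 1173.

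The 3082 genes were then separated by which of the lines had a called effect and in which direction. Both effects were called, with the same sign and a smaller size in SCC25, for 511 genes (16.6% of the 3082). Both were called with the same sign and a larger size in SCC25 for 12 (0.389%), and with opposite signs for 105 (3.41%). The effect of SCC1 alone was called for 2137 (69.3%), that of SCC25 alone for 228 (7.4%), and neither for 89 (2.89%). With day within line as a block, which uses the day that PBS and cetuximab libraries share, 877 genes were of the same direction and smaller in SCC25, 34 of the same direction and larger, 206 of opposite direction and 398 called in SCC25 alone. The fits that take the flow cell into account moved these counts the other way, to 104, 0, 20 and 41 as a covariate. With flow cell and block together, the SCC1 effect rests on day 5 and the SCC25 effect on days 1 and 2. That fit therefore compares the lines on different days.

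**Figure D1:**
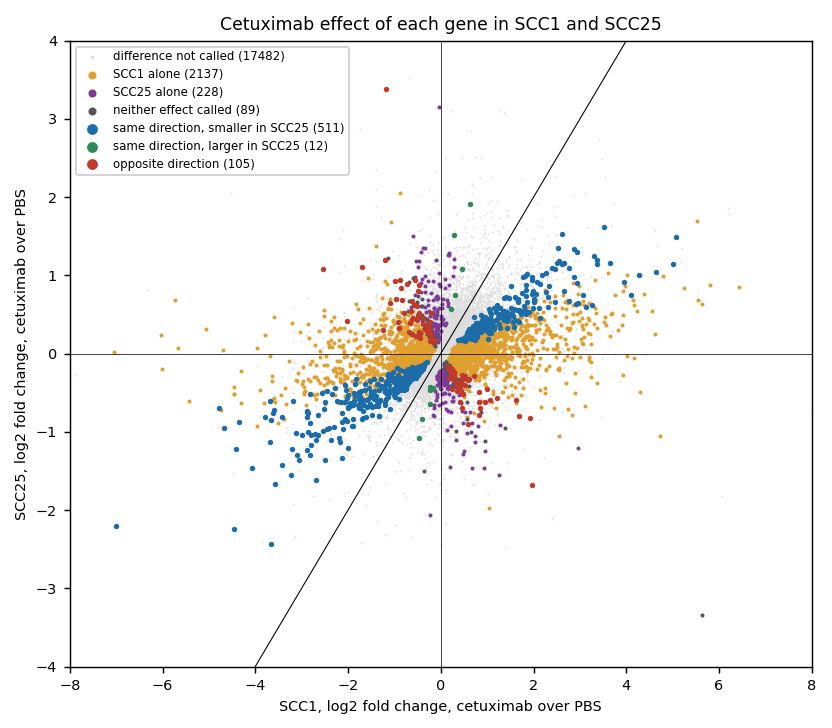
Log2 fold change of cetuximab over PBS in SCC1 (x axis) and SCC25 (y axis) for the genes tested, coloured by class, with the number of genes in each class. The diagonal line marks equal fold changes, and 7 genes lie outside the axes. The 511 genes of the same direction and smaller in SCC25 lie between the diagonal and the horizontal axis, and the 105 of opposite direction fill the upper left and lower right.

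Among the 511 genes with a smaller response of the same direction in SCC25, 206 rose and 305 fell with cetuximab in both lines. The median size of the fold change was 1.17 log2 units in SCC1 and 0.45 in SCC25, and the median ratio of the SCC25 to the SCC1 fold change was 0.388. These sizes describe genes that were chosen on the same libraries.

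PHLDA1, an ERK-induced gene that takes part in growth factor feedback, had the largest negative difference of this kind. The ranking took genes at mean levels of 3 log2 CPM or more with the same sign on 5 of 5 days. It lies at chr12:76419227-76425556 (GRCh37, minus strand). On days 1 to 5 its level in SCC1 was 80.5, 159, 194, 162 and 115 CPM with PBS and 11, 14.2, 13.4, 9 and 7.75 CPM with cetuximab. In SCC25 it was 498, 541, 625, 564 and 547 CPM with PBS and 364, 386, 391.8, 349 and 331 CPM with cetuximab. Neither line had overlapping groups, and the cetuximab libraries of SCC25 all stayed above every PBS library of SCC1. The fold change was -3.68 ± 0.19 (log2, SE) in SCC1 and -0.61 ± 0.17 in SCC25, a difference of -3.07 (95% interval -3.60 to -2.55; adjusted p = 1.03e-07, lower on 5 of 5 days). NT5E, the ectoenzyme CD73 that makes adenosine from AMP, fell from a mean of 325 CPM to 35.6 CPM in SCC1 and from 198 to 130 CPM in SCC25 (difference -2.58 ± 0.23, adjusted p = 2.74e-07). ANTXR2, an anthrax toxin receptor that binds basement membrane proteins, fell by 3.61 log2 units in SCC1 and by 0.76 in SCC25 (adjusted p of the difference 9.15e-08). DOCK4, an activator of small GTPases, fell by 3.43 and 0.81, and the stromelysin MMP3 by 4.06 and 1.47. All of these differences were negative on 5 of 5 days.

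Of the rises of this kind, ranked under the same limits of level and sign, ACKR3 had the largest difference. ACKR3, an atypical chemokine receptor for CXCL12, had 12 counts in all over the 5 PBS libraries of SCC1 and 383 over the 5 cetuximab libraries, against 19842 and 42794 in SCC25. Its fold change was 5.00 ± 0.44 in SCC1 and 1.15 ± 0.16 in SCC25 (difference 3.85, adjusted p = 2.79e-05), and the difference was 3.69 when flow cell entered the model (adjusted p = 0.0411) and 3.67 among libraries of the same flow cell (adjusted p = 0.0584). OLR1, a scavenger receptor for oxidised LDL, rose by 4.65 log2 units in SCC1 and 1.05 in SCC25. CYP1A1, a target of the aryl hydrocarbon receptor, rose by 3.95 and 0.92. The adhesion gene SDK1 rose by 3.14 and 0.59, and CRYAB, a small heat shock protein, by 3.08 and 0.75. In SCC1 the mean of SDK1 went from 0.223 to 2.01 CPM and that of CRYAB from 0.652 to 5.52 CPM. The SCC25 means were far higher, at 12.6 and 19 CPM for SDK1 and 66.5 and 112 CPM for CRYAB. The adjusted p of these 4 differences lay between 1.81e-05 and 1.04e-04. The SCC25 groups overlapped for each of the 4. Within flow cells the calls of SDK1 (2, adjusted p = 0.0706) and CRYAB (2.4, adjusted p = 0.0574) were lost.

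Among the gene lists examined, that of the ERK pathway held the most genes of the same direction and smaller in SCC25. The lists were chosen with earlier results of these data known. The median difference was -0.885 in the ERK list and -1.33 in the list of inflammatory cytokines and NF-kB targets. Of 20 listed genes of ERK output and feedback, all tested, the difference was negative for 11 and positive for 3, together 70%, against 15% of all genes tested. Cetuximab lowered 15 of the 20 in SCC1 and 14 in SCC25, where 20.4% and 9.6% of all genes tested fell, and 10 were of the same direction and smaller in SCC25. The median fold change of the list was -1.81 in SCC1 and -0.799 in SCC25, against 0.0166 and 0.0158 over all genes tested. DUSP6, the phosphatase that inactivates ERK, was at 112, 186, 171, 150.5 and 103 CPM in SCC1 with PBS and at 14.5, 20.9, 19.3, 14.2 and 9.57 CPM with cetuximab. The SCC25 level was at 88.1, 97.7, 98.9, 94.5 and 80.9 CPM with PBS and at 41.5, 42, 41.2, 39 and 34.7 CPM with cetuximab. In neither line did the groups overlap, and with cetuximab the SCC1 level passed below that of SCC25. Its fold change was -3.20 ± 0.18 in SCC1 and -1.21 ± 0.17 in SCC25, and the difference -1.99 (95% interval -2.48 to -1.50, adjusted p = 7.02e-06). FOSL1, an AP-1 subunit that ERK stabilises and induces, fell by 2.69 and 1.10 (difference -1.59 ± 0.22, adjusted p = 3.39e-05). EGR1, an immediate early transcription factor, had the largest fall of the list in SCC25, with a fold change of -3.66 ± 0.28 in SCC1 and -2.43 ± 0.26 in SCC25. Its difference of -1.22 (adjusted p = 0.0259) was lost when any 1 of 4 libraries was left out, SCC1 PBS of day 2, SCC1 cetuximab of day 4 or 5, or SCC25 cetuximab of day 4, with an adjusted p of up to 0.0556. It was -0.61 when adjusted for flow cell (adjusted p = 0.603) and -0.64 within flow cells (adjusted p = 0.575).

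Of the other members, DUSP4, DUSP5, SPRY4, EPHA2, FOS and IER3 were also called in both lines and smaller in SCC25, with differences between -0.79 (DUSP5) and -1.28 (SPRY4). Within flow cells the differences were -0.87 for DUSP4 (adjusted p = 0.106), -0.54 for DUSP5 (0.127), -0.74 for SPRY4 (0.0511), -1.09 for EPHA2 (0.0852) and -0.57 for FOS (0.512), none of them called, and that of IER3 stayed called. SPRED3, a RAS pathway inhibitor, fell in SCC1 alone (-2.02 in SCC1, -0.03 in SCC25, adjusted p of the difference 1.41e-04). The exceptions were the ETS factors of the PEA3 group. ETV4 was at 61.5, 62.5, 57.1, 55 and 46.4 CPM in SCC1 with PBS and at 50.3, 45.4, 39.6, 34.4 and 34.6 CPM with cetuximab. Levels in SCC25 were at 48.2, 52.6, 44.1, 38.5 and 34.8 CPM with PBS and at 21.6, 24.2, 18.2, 19.6 and 19.2 CPM with cetuximab. Here the groups overlapped in SCC1 and stood apart in SCC25. Cetuximab gave a fold change of -0.47 ± 0.12 in SCC1 and -1.08 ± 0.12 in SCC25, a difference of 0.62 in the other direction from PHLDA1 and DUSP6 (adjusted p = 0.0168, 0.0826 with the flow cell as a covariate). ETV5 fell in SCC25 alone (0.10 in SCC1, -0.29 in SCC25, adjusted p of the difference 0.00945, and 0.0962 within flow cells). EPHA4 rose in SCC1 alone, from 13 counts in all to 44 over 5 libraries each (adjusted p of the difference 0.219 within flow cells).

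MYC was lowered in both lines by amounts that the test did not tell apart. Its level fell from a mean of 156 to 86.3 CPM in SCC1 and from 548 to 266 CPM in SCC25, a difference of 0.18 with a 95% interval from -0.17 to 0.53 (adjusted p = 0.546). The interval leaves room for a fold change that is up to 0.53 log2 units smaller in SCC1. The difference was not called for CCND1, SPRY1, SPRY2, SPRED1 and SPRED2 either, and SPRED2 (-0.30) was called with the day as a block (adjusted p = 0.0205). Adjusting for flow cell left 6 of the 20 ERK genes called in place of 14.

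**Figure D2:**
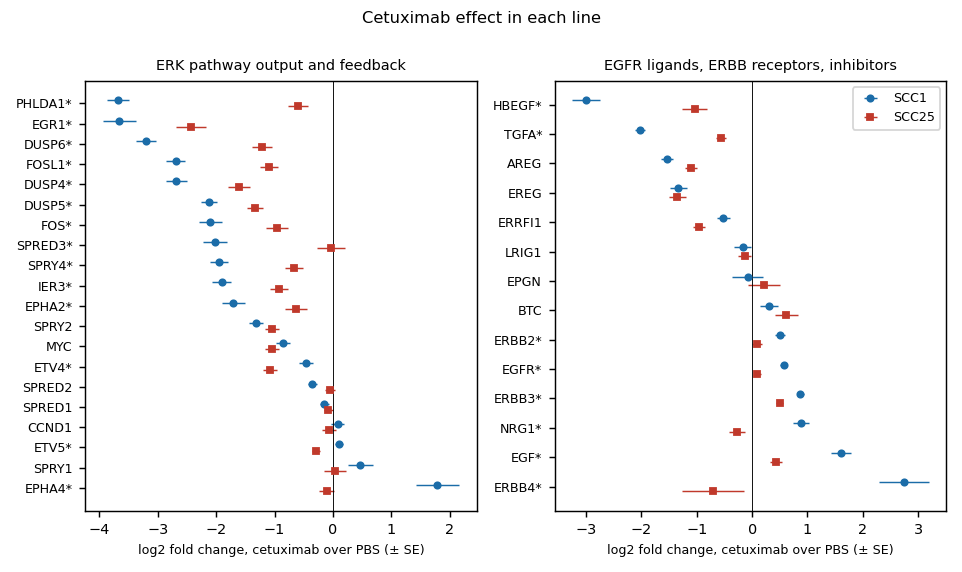
Log2 fold change of cetuximab over PBS (x axis, ± SE) in SCC1 (circles) and SCC25 (squares) for the 20 ERK pathway genes (left) and the 14 EGFR ligand and receptor genes (right), each of which was tested. An asterisk marks a called difference between the lines, which 14 and 8 genes have. Most ERK genes lie left of 0 in both lines and farther left in SCC1, whereas ETV4 lies farther left in SCC25.

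Among 14 EGFR ligands, ERBB receptors and inhibitors of the receptor, the difference was called for 8 (57.1%), against 15% of all genes tested. It was positive for 6 and negative for 2, against 7.37% and 7.62% of all genes. Of the 7 EGFR ligands listed, TGFA, HBEGF, AREG and EREG fell in both lines, but not to the same degree. TGFA, the ligand TGF-alpha, was at 208, 256, 280.5, 266 and 280.1 CPM in SCC1 with PBS and at 62.4, 66.7, 71, 63.7 and 51.7 CPM with cetuximab. For SCC25 it was at 86.8, 86.3, 96.9, 89 and 86.5 CPM with PBS and at 53.3, 55.7, 66.8, 66.1 and 58.9 CPM with cetuximab. The cetuximab groups of both lines thus had overlapping ranges, from PBS levels that did not overlap. The fold change was -2.03 ± 0.09 in SCC1 and -0.57 ± 0.09 in SCC25 (difference -1.47, adjusted p = 1.33e-07). HBEGF, heparin-binding EGF-like growth factor, fell by 3.00 and by 1.03 log2 units (difference -1.97 ± 0.33, adjusted p = 2.36e-04). With the flow cell as a covariate HBEGF had a difference of -1.56 (adjusted p = 0.0544), and within flow cells of -1.59 (adjusted p = 0.00706). TGFA stayed called in both fits.

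EREG, which encodes epiregulin, fell in both lines, with a fold change of -1.33 ± 0.16 in SCC1 and -1.35 ± 0.16 in SCC25. Its difference was 0.02 with a 95% interval from -0.44 to 0.48. AREG, which encodes amphiregulin, fell by 1.54 and 1.11, and the difference of -0.43 had an adjusted p of 0.0559, and of 0.00726 with the day as a block. ERRFI1, a feedback inhibitor that binds EGFR, fell by 0.52 in SCC1 and by 0.96 in SCC25 (difference 0.44, adjusted p = 0.0725, and 6.33e-04 with the day as a block). EGF itself, at low levels, rose in both lines, from 44 counts over 5 libraries to 128 in SCC1 and from 1167 to 1517 in SCC25. Its fold change was 1.61 ± 0.19 in SCC1 and 0.43 ± 0.11 in SCC25 (difference 1.18 ± 0.22, adjusted p = 7.91e-04, and 0.208 adjusted for flow cell). BTC, which encodes betacellulin, rose in SCC25 (0.62, adjusted p = 0.04) and had an estimate of 0.31 in SCC1, and EPGN, which encodes epigen, was called in neither line. The differences of BTC and EPGN were not called.

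Cetuximab raised 6 of the 14 genes in SCC1, EGF, NRG1 and the receptors EGFR, ERBB2, ERBB3 and ERBB4, and 3 in SCC25, EGF, BTC and ERBB3, where 20.3% and 8.38% of all genes tested rose. EGFR was at 609, 651, 659, 624 and 607 CPM in SCC1 with PBS and at 816, 835, 917, 1050 and 1056 CPM with cetuximab. In SCC25 it was at 1063, 1065, 1058, 1048 and 1095 CPM with PBS and at 1101, 1117, 1137, 1182 and 1141 CPM with cetuximab. The groups did not overlap in either line, but the fold change was 0.57 ± 0.06 in SCC1 and 0.09 ± 0.06 in SCC25, and the latter was not called (adjusted p = 0.323). The difference of 0.48 had an adjusted p of 5.43e-04 and, among libraries of the same flow cell, of 0.0507. ERBB2 (difference 0.42) rose in SCC1 alone and ERBB3 (difference 0.38) in both lines and less in SCC25, and neither was called in the fits that take the flow cell into account. There the difference was 0.27 and 0.24 for ERBB2 (covariate and within flow cells, adjusted p = 0.463 and 0.466) and 0.42 and 0.39 for ERBB3 (adjusted p = 0.0878 and 0.0839). ERBB4 was called in SCC1 alone, with 16 counts over 5 PBS libraries and 104 over 5 cetuximab libraries (adjusted p of the difference 0.0751 with the covariate). NRG1, a ligand of ERBB3 and ERBB4, rose in SCC1 alone, from a mean of 28 to 51.5 CPM, and was at 152 and 126 CPM in SCC25 (difference 1.15 ± 0.21, adjusted p = 5.35e-04, and 0.0535 with the covariate). The NRG1 groups overlapped in SCC1, where the PBS library of day 1 had 41.4 CPM and the cetuximab library of day 5 had 39.5 CPM.

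A called reversal was seen for 105 genes, of which 48 rose in SCC1 and fell in SCC25, and 57 fell in SCC1 and rose in SCC25. The median size of the fold change was 0.471 in SCC1 and 0.398 in SCC25, smaller than the 1.17 of the genes that responded less in SCC25, and 60 of the 105 were larger in SCC1. Mean levels of 3 log2 CPM or more were reached by 79, and 85 had at least 1 CPM on average in each line. A difference of at least 1 log2 unit was measured for 42. The 105 differences kept their sign in each alternative fit. When flow cell entered the model, both estimates still had opposite signs for 103, the difference was called for 61, and 14 kept both effects called.

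Among the genes that rose in SCC1 and fell in SCC25, ranked under the same limits of level and sign, IL1RN had the largest difference. It encodes the interleukin-1 receptor antagonist and lies at chr2:113856892-113891593 (GRCh37, plus strand). In SCC1 it was at 1.99, 1.61, 1.65, 1.85 and 2.08 CPM with PBS and at 3.35, 4.5, 5.84, 8.41 and 12.7 CPM with cetuximab. The SCC25 level was at 33.5, 42.5, 43.4, 48.8 and 55.6 CPM with PBS and at 25, 23.6, 26.1, 27.3 and 24.8 CPM with cetuximab. The groups stood apart in both lines, the cetuximab libraries of SCC1 were higher from day to day, and all levels in SCC25 were above those of SCC1. Its fold change was 1.92 ± 0.26 in SCC1 and -0.82 ± 0.22 in SCC25, a difference of 2.74 (95% interval 2.04 to 3.44, adjusted p = 1.09e-05). Adjusted for flow cell, the difference stayed called and the fall in SCC25 did not (adjusted p = 0.0887).

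TGFBR3, the co-receptor betaglycan of TGF-beta, was at 5.42, 4.86, 4.54, 5.03 and 4.95 CPM in SCC1 with PBS and at 8.79, 10.5, 11, 11.7 and 15.8 CPM with cetuximab. Levels in SCC25 were at 11.4, 9.95, 12.1, 9.64 and 9.2 CPM with PBS and at 6.43, 6.83, 7.99, 7.13 and 6.94 CPM with cetuximab. With cetuximab the order of the lines was exchanged, and neither line had overlapping groups. The difference was 1.79 ± 0.17 (adjusted p = 8.24e-07). FGFBP1, a carrier that releases fibroblast growth factors from the matrix, was at 59.6, 45.6, 47.7, 54.8 and 65.6 CPM in SCC1 with PBS and at 115, 122, 111, 116 and 109.7 CPM with cetuximab. For SCC25 it was at 93.8, 109, 102, 103 and 118 CPM with PBS and at 83.8, 70.4, 70.5, 63.4 and 60.6 CPM with cetuximab. Its groups stood apart in both lines as well. Cetuximab gave a fold change of 1.07 ± 0.09 in SCC1 and -0.60 ± 0.09 in SCC25 (difference 1.67 ± 0.13, adjusted p = 9.15e-08). TGFBR3 and FGFBP1 kept both effects called, with opposite signs, with the flow cell as a covariate and among libraries of the same flow cell.

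EMP1, an epithelial membrane protein, was at 55, 50, 54.7, 51 and 65.6 CPM in SCC1 with PBS and at 63.3, 75.5, 99.1, 129.5 and 172 CPM with cetuximab. In SCC25 it was at 229.6, 255, 277, 289 and 272 CPM with PBS and at 145, 158, 202, 184 and 172 CPM with cetuximab. The SCC1 groups overlapped, since cetuximab of day 1 (63.3 CPM) lay below PBS of day 5 (65.6 CPM). By day 5 both lines had about the same level with cetuximab. The difference was 1.58 ± 0.26 (adjusted p = 1.88e-04, and 0.0798 among libraries of the same flow cell, where neither line's effect was called). The chloride channel gene ANO1 was abundant in SCC25, where it fell from 439 to 254 CPM, and had only 15 and 47 counts in all in SCC1, so that its reversal rests on few counts (adjusted p of the difference 0.245 within flow cells).

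Among the genes of opposite direction that fell in SCC1, ranked under the same limits of level and sign, LTB had the largest difference. It encodes lymphotoxin-beta, which anchors a TNF family ligand in the membrane. In SCC1 it was at 15.2, 25.7, 28.1, 34.4 and 21.1 CPM with PBS and at 5.2, 5.2, 4.67, 2.83 and 3.55 CPM with cetuximab. The SCC25 level was at 1.09, 1.18, 1.18, 0.853 and 1.09 CPM with PBS and at 2.66, 2.74, 1.63, 2.07 and 2.32 CPM with cetuximab. The groups stood apart in both lines, and the levels of the lines came closer with cetuximab. The fold change was -2.53 ± 0.20 in SCC1 and 1.09 ± 0.22 in SCC25, a difference of -3.62 (95% interval -4.24 to -3.01, adjusted p = 1.03e-07), and both effects stayed called with the flow cell as a covariate and within flow cells. In SCC25 the rise rests on 244 counts over the 5 PBS libraries and 507 over the 5 cetuximab libraries.

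MME, the membrane metalloendopeptidase neprilysin, was at 67.6, 89.7, 109, 114 and 119.6 CPM in SCC1 with PBS and at 56.8, 57.4, 57.1, 60.2 and 69.5 CPM with cetuximab. Levels in SCC25 were at 82, 78.7, 104, 129 and 143 CPM with PBS and at 136, 159, 228, 228 and 245 CPM with cetuximab. Both PBS groups were higher on later days and overlapped with their cetuximab groups, but on each of the 5 days cetuximab was below PBS in SCC1 and above it in SCC25. The difference was -1.62 ± 0.26 (adjusted p = 1.38e-04). Adjusted for flow cell, the rise in SCC25 was 0.45 and not called (adjusted p = 0.174). INAFM2 fell by 0.80 in SCC1 and rose by 0.52 in SCC25 with no overlap in either line (adjusted p of the difference 4.28e-05, and 0.0809 within flow cells). SDK2 had 36 and 8 counts in all in SCC1, and RN7SL2, a non-coding RNA gene with near-identical copies, may take reads from them, and the calls of both were lost in each of the fits that take the flow cell into account.

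**Figure D3:**
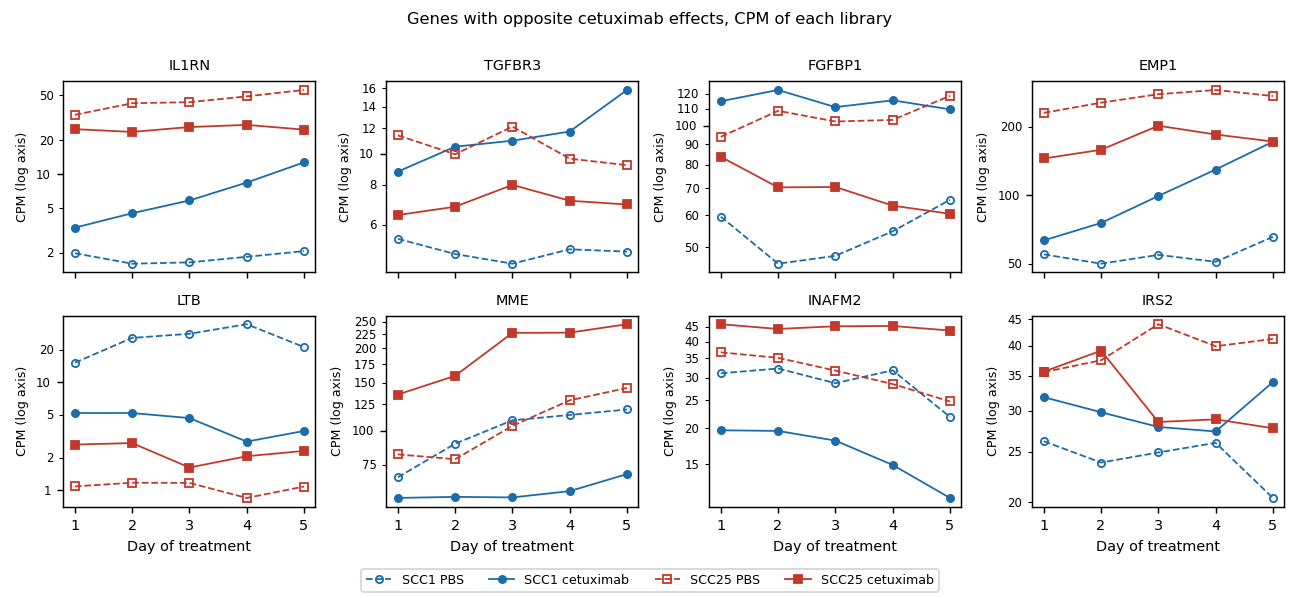
CPM (log axis) on days 1 to 5 for 8 genes with called effects of opposite direction, with 1 point per library, SCC1 as circles, SCC25 as squares, PBS as open symbols on dashed lines and cetuximab as filled symbols on solid lines. In the upper row the filled circles lie above the open circles and the filled squares below the open squares, and for LTB, MME and INAFM2 the reverse holds.

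Only 4 members of the gene lists examined were of opposite direction. Beside IL1RN these were IRS2, an adaptor of the insulin receptor that FOXO factors induce, and, named after their values were seen, TWIST1 and COL8A1. IRS2 was at 26.2, 23.9, 24.9, 26 and 20.4 CPM in SCC1 with PBS and at 31.9, 29.8, 27.9, 27.4 and 34.1 CPM with cetuximab. For SCC25 it was at 35.6, 37.5, 44, 39.9 and 41.2 CPM with PBS and at 35.7, 39.1, 28.5, 28.9 and 27.8 CPM with cetuximab. In SCC25 the libraries of days 1 and 2, which share a flow cell with PBS, were at the PBS level, and those of days 3 to 5, from another flow cell, were below it. The difference of 0.62 was called (adjusted p = 0.00315), but the fall in SCC25 was -0.08 among libraries of the same flow cell. TWIST1, a transcription factor of mesenchymal cells, rose by 0.31 and fell by 0.33, and COL8A1, a short-chain collagen, fell by 0.57 and rose by 0.62.

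Upstream sequence was examined for 12101 of the tested genes (58.8%) that matched an entry of the RefSeq promoter table by symbol, in the 250 bases before the first start listed (GRCh38.p14). The AP-1 motif TGANTCA, on either strand, was present in 6.17% of the 81 promoters of opposite direction, 6.35% of the 362 of the same direction and smaller in SCC25, 4.77% of all promoters of tested genes and 6.6% of all 27305 promoters in the table. The TFAP2 motif GCCNNNGGC was in 25.9%, 29.6%, 26.9% and 19.7%. The ETS motif CCGGAAGT was in 4.94%, 4.42%, 6.25% and 3.64%, and the interferon-stimulated response element in 4.94%, 2.76%, 2.45% and 3.07%. These shares are a description of the windows, not of binding. Of the 10 genes of opposite direction chosen for naming, 8 had an entry, and TGANTCA was found in those of IL1RN and EMP1. Both windows are shown with the motif in capitals, and a link between the motif and the reversal was not tested. They run 5′ to 3′ on the plus strand. That of IL1RN lies at chr2:113117721-113117970, before the first of 3 RefSeq starts, and that of EMP1 at chr12:13196476-13196725, before its single start.
IL1RN: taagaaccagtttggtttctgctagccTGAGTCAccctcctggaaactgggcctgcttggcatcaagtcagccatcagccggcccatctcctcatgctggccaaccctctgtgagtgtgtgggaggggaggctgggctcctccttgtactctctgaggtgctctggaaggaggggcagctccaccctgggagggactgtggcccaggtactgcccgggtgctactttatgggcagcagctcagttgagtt
EMP1: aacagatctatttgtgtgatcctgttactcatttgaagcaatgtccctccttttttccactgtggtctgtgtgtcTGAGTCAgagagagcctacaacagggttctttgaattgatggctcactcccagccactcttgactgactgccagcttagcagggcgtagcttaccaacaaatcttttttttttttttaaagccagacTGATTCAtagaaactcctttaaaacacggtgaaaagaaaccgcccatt
The motif begins 223 bases before the start in IL1RN and 175 and 48 bases before it in EMP1.

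The largest group, 2137 genes, was called in SCC1 and not in SCC25. Their median fold change was 0.774 in size in SCC1 and 0.131 in SCC25, and the SCC25 estimate had the sign of SCC1 for 1206 (56.4%). For these genes a smaller response and a reversal in SCC25 cannot be told apart one by one, since the SCC25 effect was not called. Genes were ranked at mean levels of 3 log2 CPM or more and a difference of the same sign on 5 of 5 days. Of those that rose in SCC1, KRT13, a keratin of stratified mucosa, had the largest difference. It was at 6.34, 1.68, 1.5, 1.36 and 6.8 CPM in SCC1 with PBS and at 72.2, 98.4, 123, 213 and 359.5 CPM with cetuximab. In SCC25 it was at 9.89, 17.1, 31.2, 65.1 and 103 CPM with PBS and at 36.1, 61.4, 77.2, 91.7 and 83.4 CPM with cetuximab. Over the days the PBS level of SCC25 came up to that of cetuximab, and on day 5 it was above it. The difference was 5.00 ± 0.83 (adjusted p = 2.41e-04, and 0.0638 adjusted for flow cell). KRT5, the basal keratin, rose from a mean of 573 to 3383 CPM in SCC1 and was at 5558 and 6458 CPM in SCC25 (difference 2.35 ± 0.34, adjusted p = 5.40e-05).

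VIM, the intermediate filament of mesenchymal cells, fell in SCC1 alone. It was at 116, 222, 256, 250.3 and 149 CPM in SCC1 with PBS and at 22.8, 13.2, 13.1, 8.62 and 9.09 CPM with cetuximab. The SCC25 level was at 1185, 1228, 979.9, 826 and 731 CPM with PBS and at 875, 866, 602, 643 and 596 CPM with cetuximab. On each day cetuximab was below PBS in SCC25 too, but the groups overlapped. Its fold change was -3.89 ± 0.27 in SCC1 and -0.47 ± 0.23 in SCC25 (adjusted p = 0.178), and the difference -3.43 (95% interval -4.15 to -2.71, adjusted p = 1.27e-06). ZEB1, a repressor of epithelial genes, fell by 2.17 in SCC1 and had an estimate of -0.10 in SCC25 (adjusted p of the difference 6.99e-06). MMP1, interstitial collagenase, fell from a mean of 19.8 to 0.37 CPM in SCC1 and was at 75.7 and 122 CPM in SCC25, where it was not called (difference -6.43 ± 0.74, adjusted p = 5.50e-06). AADAC, an ester hydrolase, and IL13RA2, a decoy receptor of interleukin-13, fell by 5.42 and 4.31 in SCC1, and had estimates of -0.61 and -0.64 in SCC25.

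SCC25 alone was called for 228 genes, of which the SCC1 estimate had the opposite sign for 174. When flow cell entered the model, the difference was called for 26 of the 228. FN1, which encodes fibronectin, had a mean of 9796 and 11810 CPM in SCC1 and fell from a mean of 7920 to 5395 CPM in SCC25 (difference 0.82 ± 0.19, adjusted p = 0.00496, and 0.073 adjusted for flow cell). TFPI2, a serine protease inhibitor of the matrix, was at 78.1, 76.2, 67.4, 54.8 and 39.9 CPM in SCC25 with PBS and at 22.7, 22.3, 22.3, 21 and 19.7 CPM with cetuximab, and had 19 and 44 counts in all in SCC1. The difference of 2.81 (adjusted p = 9.57e-04) was not called within flow cells (1.94, adjusted p = 0.311), and it sets a fall in SCC25 against a gene near the lower limit of detection in SCC1. ITGB3, the integrin beta-3 chain, rose from a mean of 11.1 to 20.7 CPM in SCC25 and was at 1.87 and 1.40 CPM in SCC1 (difference -1.33 ± 0.33, adjusted p = 0.00724). TNFAIP2, a TNF-induced gene, rose from 22.6 to 42.9 CPM in SCC25 and was at 62.4 and 51.4 CPM in SCC1 (difference -1.21 ± 0.30, adjusted p = 0.00708, and 0.192 within flow cells). The 12 genes of the same direction and larger in SCC25 included, beside ETV4, the protein C receptor PROCR and the EGR co-repressor NAB2 among the falls, and the blood group gene XG and ALDH5A1, an enzyme of GABA breakdown, among the rises, with differences of 0.45 or less in size. None of the 12 differences was called with the flow cell as a covariate. The call of ALDH5A1 was also lost when any 1 of 5 libraries was left out (edgeR adjusted p up to 0.0563). That of NAB2 was lost without any 1 of 4 (edgeR adjusted p up to 0.0581). ETV4, PROCR and XG stayed called without each single library.

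Gene lists showed where the lines parted. Among 19 tested inflammatory cytokine and NF-kB target genes, the difference was negative for 10 and positive for 1, IL1RN. Of all genes tested, 7.62% had a negative difference and 7.37% a positive one. Cetuximab lowered 15 of the 19 in SCC1 and 5 in SCC25, against 20.4% and 9.6% of all genes, and the median fold change was -2.35 in SCC1 and -0.444 in SCC25. CXCL1, a neutrophil chemokine, fell from a mean of 105 to 10.3 CPM in SCC1 and was at 4.62 and 3.39 CPM in SCC25 (difference -2.91 ± 0.45, adjusted p = 1.04e-04). CSF2, which encodes GM-CSF, fell in both lines, from 250 counts over 5 libraries to 11 in SCC1 and from 2389 to 1282 in SCC25 (difference -3.47 ± 0.47, adjusted p = 3.06e-05). CXCL1 was thus a gene with a high PBS level in SCC1, and CSF2 one with a high PBS level in SCC25, and both had a negative difference.

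Of 25 proliferation genes, 22 fell in SCC1 and 13 in SCC25, against 20.4% and 9.6% of all genes, and none rose in either line. The difference was negative for 8, against 7.62% of all genes, and positive for none, and with the day as a block it was called for 16. CDC6, which loads the replicative helicase, fell by 1.02 in SCC1 and by 0.24 in SCC25 (adjusted p of the difference 2.27e-05), and CCNE2, an S phase cyclin, fell by 0.86 in SCC1 and had an estimate of -0.02 in SCC25. Of 14 metalloproteinase and plasminogen genes, the difference was negative for 5, 42.9% being called in either direction against 15% of all genes, and positive for 1, the inhibitor TIMP3, which rose from a mean of 72.6 to 332 CPM in SCC1 and was at 182 and 191 CPM in SCC25 (difference 2.13 ± 0.31, adjusted p = 5.30e-05).

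Lists of keratins and matrix genes held more positive than negative differences, where 7.37% and 7.62% of all genes had them. Of 13 basal keratinocyte genes the difference was positive for 6 and negative for 2, with the laminin chain LAMB3 at -0.91 (-0.75 within flow cells, adjusted p = 0.116). Of 22 tested keratinocyte differentiation genes of 32 listed, it was positive for 6 and negative for 1, the calcium-binding S100A9 (adjusted p = 0.0508 with the flow cell as a covariate). Of 17 collagens and small proteoglycans it was positive for 7, with COL5A1 at 1.79, and negative for 3, with the collagen VI chains COL6A2 at -1.68 and COL6A1 at -1.41. Of 18 mesenchymal genes it was positive for 5, with the matrix protein SPARC at 1.40, and negative for 3, VIM, ZEB1 and, named after its values were seen, the integrin chain ITGA5, so that this list moved in both directions. Of 9 fibroblast markers it was positive for 3 and negative for none, and their summed level was 53.5 to 76.9 CPM in SCC1 with PBS, 99.5 to 231 CPM with cetuximab, 185 to 237 CPM in SCC25 with PBS and 301 to 475 CPM with cetuximab. In every group PDGFRB was under 1 CPM, and the part of other cells in these genes was not tested.

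Of 16 NRF2 target genes, 11 rose in SCC1 and none in SCC25, against 20.3% and 8.38% of all genes, and the difference was positive for 5, against 7.37%, and negative for none, and called for 12 with the day as a block. AKR1C2, an aldo-keto reductase with near-identical paralogs between which reads can be split, rose from a mean of 15.8 to 240 CPM in SCC1 and was at 122 and 212 CPM in SCC25 (difference 3.14 ± 0.52, adjusted p = 2.38e-04). Of 20 sterol and fatty acid synthesis genes, 8 rose in SCC1 and 5 fell in SCC25, against 20.3% and 9.6% of all genes, and the difference was positive for 5, against 7.37%, among them the desaturase SCD and the lanosterol synthase LSS, and negative for none. Within flow cells SCD had a difference of 0.12 (adjusted p = 0.819) and LSS of 0.44 (adjusted p = 0.0574). Of 25 interferon-response genes none had a called difference, and the median fold change was 0.398 in SCC1 and 0.666 in SCC25. With the day as a block 2 differences were called.

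**Figure D4:**
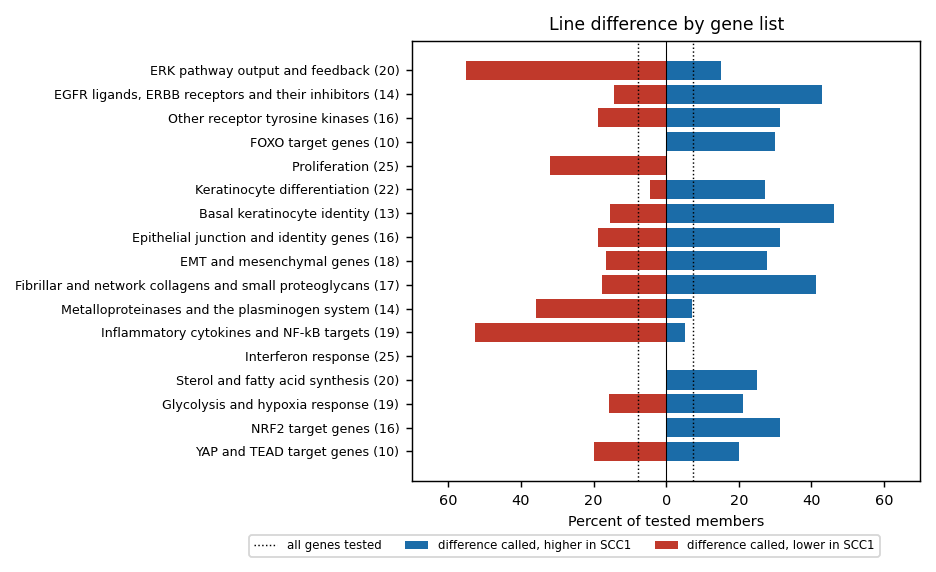
Percent of the tested members of each gene list (number in brackets) with a called line difference, higher in SCC1 to the right and lower in SCC1 to the left, with dotted lines at 7.37% and 7.62%, the shares over all genes tested. The ERK and cytokine lists extend to the left, the basal keratinocyte and collagen lists mostly to the right, and the interferon list has no bar.

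A response of like size was also common. Both lines had a called effect for 2506 genes, and 2401 of them (95.8%) changed in the same direction. Of the 2401, the difference was called for 523 and not called for 1878. The 95% interval of the difference lay within 0.5 log2 units of 0 for 1315 genes, and within 0.25 for 381. EREG, with an interval from -0.44 to 0.48, was among the 1315, and MYC, with an upper bound of 0.53, was not.

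The classes were examined on days that had not been used to form them. For each day in turn, genes were classed in a fit without that day, and the ratio of cetuximab to PBS was then read on the day left out, on the log2(CPM + 0.5) scale and signed by the direction in that fit. For genes of the same direction and smaller in SCC25, the median on days 1 to 5 was 0.713, 1.3, 1.29, 1.64 and 1.42 in SCC1, while SCC25 had 0.409, 0.51, 0.54, 0.551 and 0.397. Between the lines the gap was narrowest on day 1. Each day had its own set, of 506, 232, 272, 163 and 329 genes, so these medians are not a time course of the same genes. For genes of opposite direction, SCC1 had medians of 0.248, 0.345, 0.384, 0.515 and 0.421 and SCC25 of -0.187, -0.337, -0.391, -0.394 and -0.35, over 122, 51, 48, 36 and 64 genes. The SCC25 ratio had the sign of SCC1 for 23.8% of them on day 1 and for 0% to 8.33% on the other days. For genes called in SCC1 alone, the SCC25 ratio had the sign of SCC1 for 72.7% and 67.8% on days 1 and 2 and for 55.6%, 60.9% and 52.7% on days 3 to 5, with SCC25 medians of 0.137, 0.118, 0.0429, 0.0683 and 0.0157. These sets also differed by day, with 2320, 1683, 1679, 1223 and 1478 genes. In SCC25 the days 1 and 2 are those with PBS and cetuximab on the same flow cell, so that day and flow cell cannot be told apart here.

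**Figure D5:**
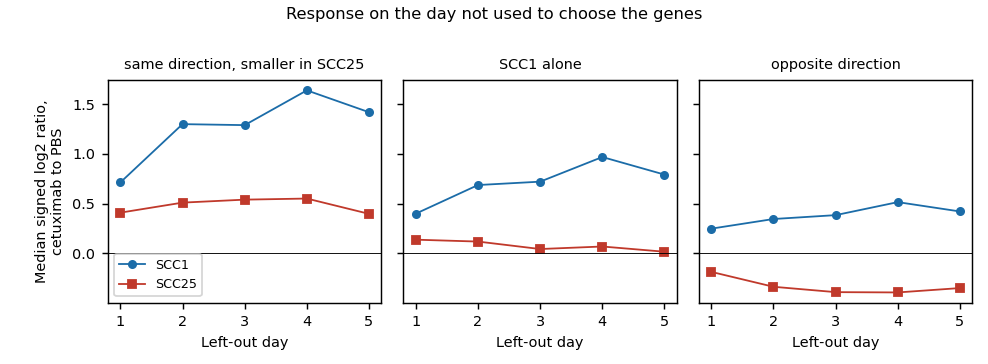
Median log2 ratio of cetuximab to PBS (y axis, CPM + 0.5) on the day left out of the fit (x axis), signed by the direction of the response in that fit, for SCC1 (circles) and SCC25 (squares) in 3 classes. SCC25 lies above 0 and below SCC1 in the left panel, close to 0 in the middle panel and below 0 in the right panel.

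The difference was also fitted for days 1 to 3 and for days 4 and 5, over 22200 genes. It was called for 1099 genes (4.95%) on days 1 to 3 and for 1983 (8.93%) on days 4 and 5. Both periods were called for 861 genes, of which 859 had the same sign. A change of the difference between the periods was called for 0 genes by edgeR's quasi-likelihood test and for 4 by DESeq2, with 1033 and 926 genes at an unadjusted p under 0.05. IL1RN had a difference of 2.06 on days 1 to 3 and of 3.43 on days 4 and 5, EMP1 of 1.17 and 2.02, and FGFBP1 of 1.63 and 1.74, and none of these changes was called (adjusted p between 0.986 and 0.996).

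At day 0, in PBS libraries that took no part in the fit, the order of the lines was opposite to the difference for 58.6% of the 3082 genes, that is, SCC1 was lower where its fold change was higher or the reverse, against 52.9% of genes without a called difference. The share was 55% for genes of the same direction and smaller in SCC25 and 61.9% for genes of opposite direction. For IL1RN the day 0 levels were 2.43 CPM in SCC1 and 28.5 CPM in SCC25, for KRT5 759 and 4660 CPM, and for LTB 6.93 and 0.784 CPM. For VIM, with 86.8 and 1180 CPM, the order was the same as that of the fold changes.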

How the data were processed

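RNA-seq libraries of SCC1 and SCC25 with PBS or cetuximab on days 1 to 5 were compared. Per the labels' processing notes, the authors quantified reads with Salmon 0.8.2 on hg19 (GRCh37) and deposited estimated counts per gene symbol, of which 29.2% of the values above 0 were whole. The annotation used is not given in the sources used here. The deposited counts were rounded, filtered with filterByExpr and scaled by TMM in edgeR 4.0.16 (R 4.3.3, limma 3.58.1), and 1 quasi-likelihood model with a term for each of the 4 groups gave the cetuximab effect of each line and their difference, adjusted by Benjamini-Hochberg over all 20564 genes tested. An adjusted p under 0.05 was called. Libraries held 36336811 to 52144216 counts, which limits genes of few counts most. Intervals are 95% intervals from the fitted standard errors.

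The members and gene lists were chosen with earlier results of these data known. Genes were named by size of the difference within each class, where mean levels reached 3 log2 CPM, with the same sign of the difference on 5 of 5 days, and by the 2 largest differences in each direction within a list, where mean levels reached 0 log2 CPM. All genes of the ERK and EGFR lists, and genes that the study discusses, could also be named.

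Libraries of the same line and day share that day in the labels, so a fit with day within line as a block was also made. Deviations of PBS and cetuximab libraries of the same day from their group means had r from 0.11 to 0.35 in SCC1 and from 0.23 to 0.56 in SCC25. For SCC1 PBS of day 5 (0.11) and SCC25 PBS of day 2 (0.55), a cetuximab library of another day gave a higher r (0.36 and 0.63). For SCC1 PBS of days 3 and 4 the same-day r was close to the highest of another day (0.15 against 0.12, and 0.17 against 0.14). Other alternatives were DESeq2 1.42.0, its size factors, no filter, the flow cell as a covariate, day 0 as further PBS libraries, libraries of the same flow cell, all 30 treated and PBS libraries, a fold threshold and leaving out each library or day. The main edgeR fit was also run on simulated counts of independent libraries. These held no flow cell effect and no change over days, so that run cannot show how either bears on the calls. Levels by library, ratios and figures were made in Python 3.11.15 (numpy 2.4.6, pandas 2.3.3, matplotlib 3.10.9). SCC6 entered the fit of 30 libraries only. Gene positions are on GRCh37 and promoters on GRCh38.p14 (RefSeq).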

Additional observations from a re-analysis of the deposited data

Results flagged for a closer look

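The cetuximab effect differed between SCC1 and SCC25 for 3082 genes by the test of the difference itself, and 105 of these had called effects of opposite direction in the lines. Among 35 genes whose levels were examined library by library, in 140 groups of 5 libraries, 5 groups held 1 library that stood apart from the other 4. Chance flags about 1 in 20 groups. EGR1 was at 8.16 CPM in SCC1 with cetuximab on day 2, against 2.87 to 4.35 CPM on the other days. ETV5 was at 68.1 CPM in SCC1 with cetuximab on day 5, against 79.6 to 84.3 CPM. TGFA was at 96.9 CPM in SCC25 with PBS on day 3, against 86.3 to 89.0 CPM. LTB was at 0.853 CPM in SCC25 with PBS on day 4, against 1.09 to 1.18 CPM. MME was at 69.5 CPM in SCC1 with cetuximab on day 5, against 56.8 to 60.2 CPM.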

How the results depend on the processing

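Flow cell and treatment overlap, and the part of the flow cell in the differences was not tested beyond these fits. The covariate fit and the fit within flow cells take each effect from the same libraries, so they are not separate checks. With the flow cell as a covariate, 1138 differences were called (543 higher and 595 lower in SCC1), with 4635 effects in SCC1 and 1367 in SCC25, and the classes held 104 (same direction, smaller in SCC25), 0 (same direction, larger), 20 (opposite), 957 (SCC1 alone) and 41 (SCC25 alone) genes. In the fit by period, the step between flow cells B and C rests on SCC1 PBS of days 4 and 5. The step between A and B rests on SCC25 cetuximab of days 1 to 3. Days 1 to 3 then had 64 calls, days 4 and 5 had 930, and the change between them 5, which cannot show when the difference arose. Called members were 6 for ERK, 2 for EGFR ligands and receptors, 3 for other receptor kinases, 1 for FOXO, 2 for keratinocyte differentiation, 4 for basal, 3 for epithelial, 4 for mesenchymal, 5 for collagen, 1 for sterol, 2 for glycolysis, 8 for NRF2, 1 for YAP and 0 for fibroblast genes. Within flow cells, the counts were 1173 (486 and 687), 4697 and 1377, and the classes 161, 0, 25, 936 and 34. With the flow cell and the replicate block together they were 1861 (902 and 959), 5533 effects in SCC1, and 339, 2, 64, 1326 and 97.

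With the replicate block of day within line alone, the classes held 877 (same direction, smaller), 34 (larger), 206 (opposite, of which 98 are among the 105) and 398 (SCC25 alone) genes, and 6 FOXO, 16 proliferation, 2 interferon and 12 NRF2 genes were called. With all 30 libraries in the fit, 1824 differences (892 and 932) and 1864 effects in SCC25 were called, and 205, 1, 35 and 81 genes in these classes. A fold threshold of 1 log2 unit left 1071 differences (560 and 511), 1912 and 348 effects, and 49, 0, 5, 831 and 31 genes by class. Without a filter, 5 genes were of the same direction and larger, 63 opposite and 131 in SCC25 alone, with 1779 calls on days 1 to 3 and 279 for the change between periods. DESeq2 called 4 such changes and 5 FOXO genes. Within 0.25 log2 units, 381 genes were alike. On left-out days, genes with an SCC1 effect had a median of 0.364 in SCC1 at a pseudocount of 2 and of 0.192 and 0.144 in SCC25 at 0.1 and 2, and opposite genes 0.484 in SCC1 at 0.1. The cause of these moves was not tested.

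Leaving out 1 library or day gave 1518 to 3342 differences (751 to 1638 higher and 767 to 1721 lower), with 1518 without day 4 and 2053 without day 5, and 1931 to 3892 effects in SCC25. The classes ranged over 163 to 622, 0 to 16, 36 to 126, 1223 to 2323 and 66 to 286 genes. Without SCC25 cetuximab of day 4 there were 66 opposite genes and 148 in SCC25 alone, and 150 of the latter without that of day 5. Same direction and larger held 5 genes without SCC25 PBS of day 2 and 7 without SCC25 cetuximab of day 5. Days 1 to 3 ranged from 710 calls without SCC1 PBS of day 2, and 724 without that of day 3, to 1701 without SCC25 cetuximab of day 3. Days 4 and 5 ranged from 1009 without SCC1 cetuximab of day 5 to 2940, with 1115 without SCC25 PBS of day 5, 1163 and 1282 without SCC25 cetuximab of day 4 and 5, and 1271 without SCC1 PBS of day 4. The change between periods had 0 to 2 calls. Leaving out whole days, and the count of opposite genes at 1 CPM or more in each line (85), were chosen after seeing the data, and day 4 gave the lowest count of every class but that of the same direction and larger.

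Differences that turned sign were not called before, except SCD (-0.117, adjusted p = 0.732, with flow cell and block). With the flow cell as a covariate and within flow cells, SPRY1 had -0.192 and -0.22, SPRED1 0.0864 and 0.0583, MYC -0.0664 and -0.0952, EREG -0.133 and -0.161 and EPGN 0.363 and 0.334. With flow cell and block together, MYC had -0.00571, EREG -0.707 and EPGN 0.0525. That fit, which also gave the SCD value, reads SCC1 on day 5 and SCC25 on days 1 and 2. Leaving out a library or day gave EREG -0.0768 to 0.159 and LRIG1 -0.126 to 0.0797.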

Other observations

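Of 16 other receptor tyrosine kinases, the difference between the lines was positive for 5 and negative for 3 (50%, against 15% of all genes tested). FGFR3 and FGFR2, receptors of fibroblast growth factors, rose in SCC1 alone, FGFR3 from a mean of 2.88 to 18.7 CPM and FGFR2 from 7.07 to 21.4 CPM, with differences of 2.57 ± 0.45 (edgeR adjusted p = 4.32e-04) and 1.31 ± 0.23 (adjusted p = 4.45e-04). With the flow cell as a covariate FGFR3 had a difference of 2.05 (adjusted p = 0.134), and FGFR2 stayed called. IGF1R, the receptor of insulin-like growth factors, rose in SCC1 alone (difference 0.60 ± 0.12). AXL fell in both lines, from 256 to 112 CPM in SCC1 and from 199 to 130 CPM in SCC25, and its difference of -0.58 (adjusted p = 0.0193) was lost without the SCC1 PBS library of day 3 and within flow cells (-0.75, adjusted p = 0.103).

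A called difference was found for 36.8% of glycolysis and hypoxia genes, 40% of YAP and TEAD targets, 30% of FOXO targets and 50% of epithelial genes. Over all genes tested the share was 15%, with 7.37% positive and 7.62% negative. Glycolysis and hypoxia genes moved both ways, with 4 of 19 differences positive, among them the glucose transporter SLC2A1 (0.73). Negative differences numbered 3, among them the angiogenic factor VEGFA (-0.77), which fell in both lines. Within flow cells SLC2A1 had 0.43 (adjusted p = 0.334) and VEGFA -0.51 (adjusted p = 0.395). Of 10 YAP and TEAD target genes, 2 were positive, with AJUBA, a LIM domain protein, at 1.11, and 2 negative, with the matricellular gene CTGF at -1.03. Of 10 FOXO target genes 3 were positive, among them the repressor BCL6 (0.83), and of 16 epithelial genes 5 were positive and 3 negative, with KRT19 at 1.04 and KRT18 at -0.73. Within flow cells CTGF had -0.76 (adjusted p = 0.0587), BCL6 0.59 (adjusted p = 0.168) and KRT19 0.76 (adjusted p = 0.41), and KRT18 stayed called. CD68, a lysosomal protein listed as a leukocyte marker, fell from 36.2 to 8.06 CPM in SCC1 and was at 206 and 166 CPM in SCC25 (difference -1.86 ± 0.24). LAPTM5, another listed leukocyte marker, fell from 2.27 to 0.178 CPM in SCC1 and was at 23.2 and 15.4 CPM in SCC25 (difference -3.05, adjusted p = 3.25e-05). PTPRC stayed under 1 CPM in every library.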
